A study of Vitis amurensis with 6 samples.

Results

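The unplaced sequence chrUn of the grape 12X assembly carried 3185 of the 44710 open chromatin regions found in leaves of Amur grape (Vitis amurensis), or 7.12%. These regions were obtained by merging the transposase hypersensitive sites (THSs) of 6 libraries wherever they shared at least 1 bp, and by keeping every merged region whose sequence name was chrUn, whatever the number of libraries with a THS in it. They hold 9187 of the 94312 listed THSs. The membership rests on position alone, so scores, widths and sharing between libraries were not used to choose the regions. Regions on the 19 assembled chromosomes (39746 regions, here called placed) served for comparison, and 1779 regions on 13 random contigs that are tied to a chromosome but not ordered within it were in neither set and are given beside some results.

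In an assembly of this kind, chrUn gathers scaffolds that could not be assigned to any chromosome and joins them end to end in an arbitrary order. A position on chrUn therefore does not give a place in the genome, and 2 sites that lie next to each other across a join need not be neighbours in the plant. Open chromatin is where nucleosomes are displaced and regulatory proteins can reach the DNA, as happens at promoters and enhancers of active genes. In ATAC-seq, a transposase cuts such DNA and inserts sequencing adapters, and a THS is a stretch where inserted fragments pile up above the local level.

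The cold group comprised 3 libraries from leaves of one-month-old wild-type in vitro plants moved to a chilled incubator at 4°C with constant light for 2 h (cold 2 h), and the control group 3 libraries from leaves of wild-type plants of the same age and culture that stayed untreated at 26°C with the same light and were sampled at 0 h (control 0 h). According to the study, all plants were subcultured from cuttings, and each replicate pooled the upper leaves of several plants. Plants left at 26°C for the same 2 h were not among the samples, so the effect of low temperature cannot be told apart from that of time or handling. The lists name no genes, so the leaf label was not checked against markers, and no library of naked DNA was analysed here as a background for the pile-up of fragments.

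Cold replicates 2 and 3 stood apart from the other 4 libraries before any comparison. Their narrowest THSs were 111 and 106 bp wide, against 203 bp in cold replicate 1 and 199 to 217 bp in the control libraries. Lists held 13350 to 15694 THSs in cold and 13019 to 19537 in control. Values without them are given beside the results they bear on, and since both belong to the cold group, their width limits and the cold treatment cannot be told apart within them.

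chrUn held 1300, 1669 and 1683 THSs in cold replicates 1, 2 and 3, against 1683, 1608 and 1244 THSs in control replicates 1, 2 and 3. The number of THSs per library thus overlapped between the groups. From the start of chrUn to the end of the last THS the sequence spans 43.1 Mb, with the first region starting at base 990 and the last ending at base 43103327. Merged regions covered 1536 kb, or 3.56% of this span, while the share covered on placed chromosomes lay between 3.01% (chromosome 6) and 4.92% (chromosome 10).

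The THSs of chrUn carried high scores. The score is the −log10 of the q-value that the peak caller gave, and since scores were not scaled between libraries they were ranked within each list as percentiles. The median percentile on chrUn was 76.9, 75.2 and 72.2 in cold replicates 1 to 3 and 75.3, 76.2 and 78.4 in control replicates 1 to 3. On placed chromosomes it lay between 45.1 and 47.8 in all 6 libraries, so the 2 kinds of sequence did not overlap. The difference averaged 29.1 ± 1.62 percentile points (SD, n = 6 libraries) and was positive in 6 of 6 libraries. It passed an exact sign-flip test over the 6 libraries (two-sided, p = 0.03125, the smallest this design allows, adjusted p = 0.0365 over 7 measures). As raw scores, the medians were 7.38 to 11.5 on chrUn and 3.52 to 4.39 on placed chromosomes. The random contigs lay in between, at median percentiles of 50.6 to 54.6.

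**Figure D1:**
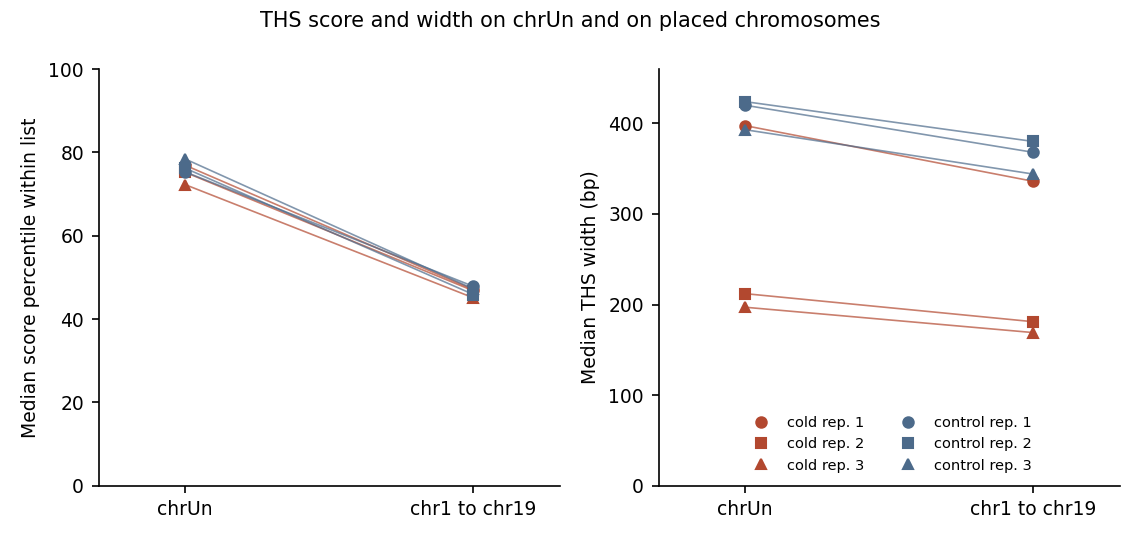
Median score percentile within each list (left, percentile) and median THS width (right, bp) on chrUn and on chr1 to chr19, with 1 line per library. All 6 lines fall from chrUn to the placed chromosomes in both panels, and cold replicates 2 and 3 lie below the other libraries in width at both ends.

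THSs of chrUn were frequent at the upper end of each list, without an even increase towards its head. THSs in the top 10% of their list's scores made up 26.6, 23.7 and 20.7% of chrUn THSs in cold replicates 1 to 3 and 27.7, 30.1 and 26.9% in control replicates 1 to 3, against 8.08 to 8.47% of placed THSs. The mean difference was 17.7 ± 3.41 percentage points (SD, n = 6, exact sign-flip p = 0.03125, adjusted p = 0.0365), with chrUn higher in 6 of 6 libraries. Of the 1000 highest-scored THSs of a list, 232 to 255 lay on chrUn in the cold libraries and 247 to 267 in the control libraries. Among the 100 highest the numbers were 14 to 16 in cold and 13 or 14 in control, a smaller share than among the 1000 highest. Among the 10 highest, 3 or 4 lay there in every library. The single highest score of each of the 6 lists was on chrUn, with 6913, 5280 and 4365 in cold replicates 1 to 3 and 9070, 9506 and 7003 in control replicates 1 to 3. Weak sites were present too, as 23.4 to 30.5% of the chrUn THSs of a library fell in the lower part of its list, at or below the 50th percentile.

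THSs on chrUn were also wider than placed ones, by a smaller margin. Their median width was 398, 212 and 197 bp in cold replicates 1 to 3 and 420, 424 and 393 bp in control replicates 1 to 3. The placed medians of the same libraries were 336, 181 and 169 bp in cold and 368, 380 and 344 bp in control. The difference of 44.2 ± 12.8 bp (SD, n = 6) was positive in 6 of 6 libraries and ranged from 28.0 to 61.5 bp (exact sign-flip p = 0.03125, adjusted p = 0.0365). When THSs were set side by side within 10 score classes of each list, this excess was seen in the highest class alone as a difference of one direction in all libraries. There, chrUn THSs were wider by 141 bp on average (41.5 to 245 bp over libraries). In the next 4 classes below it the mean differences lay between -61.8 and -31.2 bp, with chrUn wider in 1 or 2 of 6 libraries. These stratified values are a description and were not tested.

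Sites on chrUn were found again in other libraries more often than placed sites. Of the 3185 regions, 590 (18.5%, exact binomial 95% interval 17.2 to 19.9%, an interval for counting error alone) had a THS in all 6 libraries, compared with 7.14% of placed regions and 8.06% of all merged regions. No chromosome came near this share, as the placed values ran from 4.99% on chromosome 1 to 9.71% on chromosome 9. The random contigs, which also lie outside the assembled order, had 9.89%. At the other end, 1417 regions (44.5%) were called in 1 library only, against 61.7% of placed regions and 60.0% of all regions. The shares of regions in 2, 3, 4 and 5 libraries were 16.6, 8.19, 6.37 and 5.78% on chrUn, and the same shares of placed regions were 15.9, 7.12, 4.49 and 3.65%, so the largest excess on chrUn lay in the regions common to all libraries. In the 4 libraries without cold replicates 2 and 3, 29.9% of chrUn regions and 13.2% of placed regions were present in all 4. With THSs of at least 217 bp alone, the shares in all 6 libraries were 16.9% and 5.82%.

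**Figure D2:**
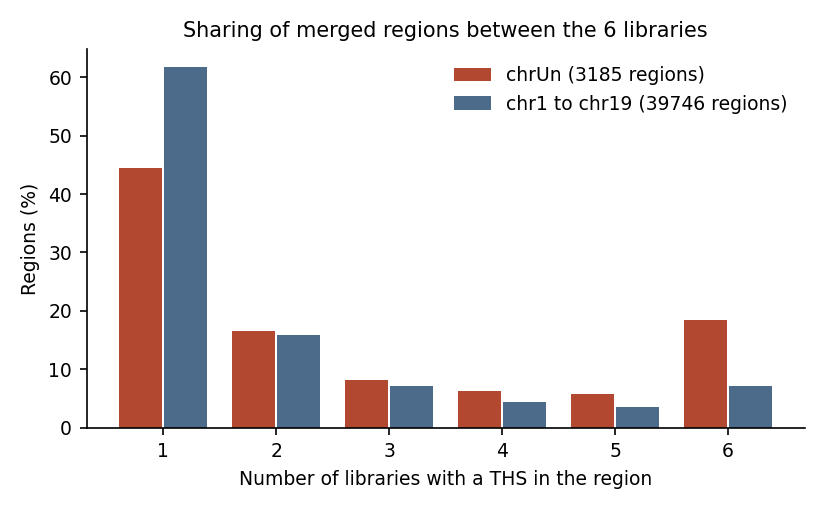
Percentage of merged regions (y axis) with a THS in 1 to 6 libraries (x axis) on chrUn (3185 regions) and on chr1 to chr19 (39746 regions). Regions of 1 library make up 44.5% on chrUn and 61.7% on placed chromosomes, and regions of all 6 libraries make up 18.5% and 7.14%.

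Counted per THS, 88.3, 86.4 and 83.7% of the chrUn THSs of cold replicates 1 to 3 overlapped a THS of at least 1 other library, and 81.3, 79.2 and 90.8% of those of control replicates 1 to 3. The placed values of the same libraries were 74.4, 70.2 and 71.2% in cold and 66.7, 63.6 and 76.1% in control. chrUn was higher in 6 of 6 libraries, by 14.6 ± 1.31 percentage points (SD, n = 6, exact sign-flip p = 0.03125, adjusted p = 0.0365). Overlap with all of the other 5 libraries was found for 35.5 to 48.5% of chrUn THSs and 16.2 to 26.1% of placed THSs, a difference of 20.1 ± 2.82 points in the same direction in 6 of 6 libraries (exact sign-flip p = 0.03125, adjusted p = 0.0365). On the random contigs, 81.8 to 84.3% of THSs in cold and 71.1 to 82.3% in control overlapped at least 1 other library. This was closer to chrUn than to placed chromosomes in the cold libraries and in control replicate 2 (76.0%). Overlap with all other libraries was found for 28.3 to 31.6% of random-contig THSs in cold and 18.2 to 27.9% in control. Since each library is compared with the other 5, the 6 values of these sharing measures are not independent.

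Sharing moved with score. Within the 10 score classes of each list, the share of THSs met in all other libraries was higher on chrUn in some classes and lower in others. In class 8 it was 32.4 ± 9.18% on chrUn and 39.5 ± 12.02% on placed chromosomes, and in class 9 it was 56.7 ± 9.07% and 62.1 ± 10.1% (SD, n = 6). In class 6 it was 14.1 ± 6.22% on chrUn and 11.4 ± 6.64% on placed chromosomes. Averaged over the classes with equal weight, so that these opposite differences offset each other, chrUn differed from placed chromosomes by -1.19 to 1.15 percentage points depending on the library. In the highest class, 87.2 ± 3.75% of chrUn and 83.2 ± 8.39% of placed THSs were met in all other libraries (SD, n = 6), and in the lowest class 1.04 ± 1.34% and 1.07 ± 1.07%. The looser measure, overlap with at least 1 other library, remained 2.18 to 5.71 points higher on chrUn at matched score. Width behaved otherwise. Within 10 width classes, chrUn THSs were met in all other libraries more often in every library, by 9.51 to 17.5 points, and in 9 or 10 of the 10 classes. No test was made of these stratified values.

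**Figure D3:**
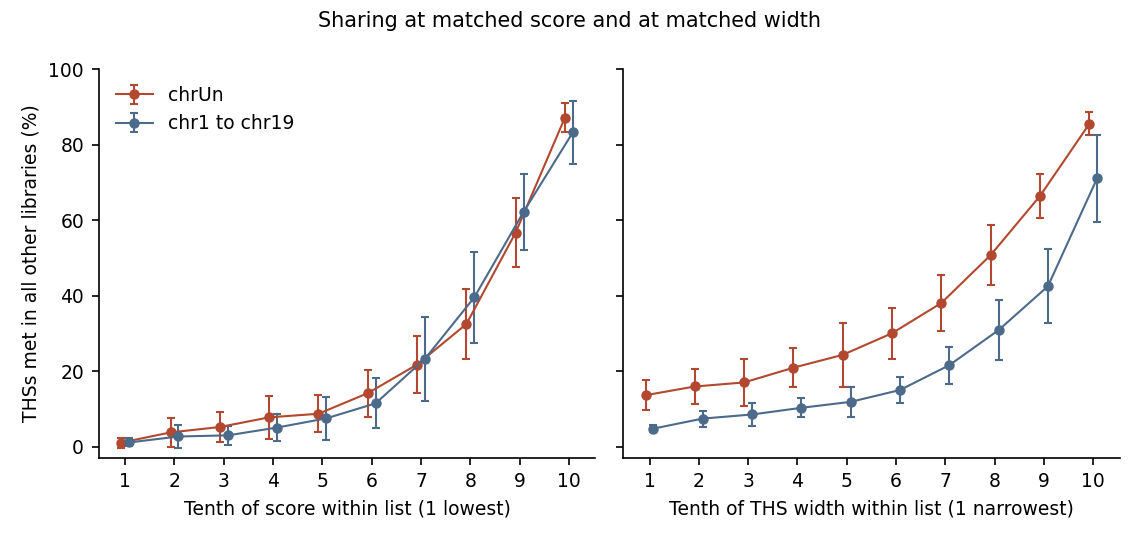
Percentage of THSs met in all other 5 libraries (y axis, mean over 6 libraries, bars show SD) by score class (left) and by width class (right), each from 1 (lowest) to 10 (highest) within the list, for chrUn and chr1 to chr19. By score the 2 curves cross, with chrUn lower in class 8 (32.4% against 39.5%) and class 9 (56.7% against 62.1%) and higher in class 10 (87.2% against 83.2%), while by width chrUn lies above throughout.

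Pairs of libraries overlapped more on chrUn as well. The Jaccard index (bp open in both libraries of a pair, as a proportion of bp open in at least 1 of them) was higher on chrUn than on placed chromosomes in 15 of 15 pairs, by 0.147 to 0.272. Cold replicates 2 and 3 reached 0.586 on chrUn and 0.314 on placed chromosomes, the highest pair on both. Pairs of cold replicate 1 with the controls had 0.511 to 0.543 on chrUn. The 3 control pairs averaged 0.498 ± 0.0150 (SD over pairs), and cold replicate 1 with cold replicates 2 and 3 had 0.398 and 0.372. The order of the pairs on chrUn therefore set cold replicate 1 beside the control libraries and apart from cold replicates 2 and 3. This grouping was not particular to chrUn, as placed chromosomes showed it too. There, cold replicate 1 reached 0.275 to 0.297 when paired with a control library. Its index was 0.231 against cold replicate 2 and 0.206 against cold replicate 3. Control libraries paired among themselves averaged 0.284 on placed chromosomes. The index is lowered between lists that cover different lengths, and pairs share libraries, so no test was made.

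A larger part of the open sequence lay on chrUn in the cold libraries, without passing a test. chrUn took 9.74, 10.6 and 12.1% of THSs in cold replicates 1 to 3 and 8.97, 8.23 and 9.56% in control replicates 1 to 3. Of the covered length it took 11.6, 13.7 and 15.4% in cold and 10.2, 9.45 and 11.4% in control. In the lists as deposited the groups did not overlap in either measure, with the cold libraries on the higher side. The difference in covered length was 3.20 percentage points (13.5 ± 1.90% in cold and 10.3 ± 0.980% in control, n = 3 libraries with SD, p = 0.1 by exact permutation, the smallest this design allows, adjusted p = 0.45 over 9 measures). That in THS number was 1.90 points with the same exact p and adjusted p. With lists of equal length the groups overlapped, at 2.66 points for covered length and 1.15 points for THS number (exact permutation p = 0.2 and 0.3). With THSs of at least 217 bp alone the differences were 5.49 and 4.08 points (exact permutation p = 0.1 and 0.2), with overlap in THS number. Cold replicate 1, the cold library with long width limits, lay just above the highest control library in both (9.74% against 9.56% of THSs, and 11.6% against 11.4% of covered length).

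**Figure D4:**
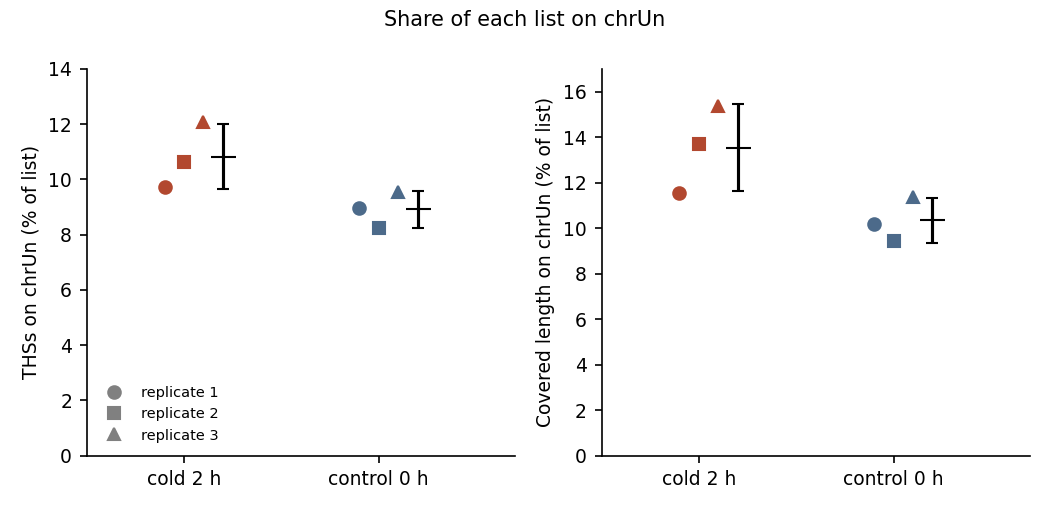
Percentage of each list that lay on chrUn, by number of THSs (left) and by covered length (right), with 1 point per library and the group mean ± SD (n = 3) in black. The cold libraries lie between 9.74 and 12.1% of THSs and the control libraries between 8.23 and 9.56%, with cold replicate 1 closest to the controls.

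In width, score and sharing of chrUn THSs the groups overlapped in the lists as deposited. The median width was 269 ± 112 bp in cold and 412 ± 16.9 bp in control (n = 3 libraries with SD, p = 0.2 by exact permutation, adjusted p = 0.45), which goes with the narrow THSs of cold replicates 2 and 3, while cold replicate 1 lay within the control range. The median percentile was 74.8 ± 2.36 in cold and 76.6 ± 1.60 in control (exact permutation p = 0.4, adjusted p = 0.514). Sharing with at least 1 other library was 86.1 ± 2.30% in cold and 83.8 ± 6.15% in control (exact permutation p = 0.6, adjusted p = 0.6). Whether the contrast of chrUn with placed chromosomes differed between groups was tested for 4 measures. For width the excess was 40.2 ± 18.5 bp in cold and 48.3 ± 4.04 bp in control (exact permutation p = 0.4, adjusted p = 0.514). For score it was 28.5 ± 1.34 and 29.7 ± 1.94 points, and for sharing with at least 1 library 14.2 ± 1.87 and 14.9 ± 0.599 points, in cold and in control (exact permutation p = 0.4 and 0.5, adjusted p = 0.514 and 0.5625). The test of spacing is given below. None passed the threshold of 0.05, which 3 libraries against 3 cannot reach, as the smallest p is 0.1. With scores of at least 4.13 alone, the median percentile on chrUn differed by -4.87 points, cold minus control. The excess over placed chromosomes then differed by -4.59 points for score and -5.22 points for sharing (exact permutation p = 0.1 and adjusted p = 0.18 for each). For width, sharing and the width excess the exact permutation p was 0.2, 0.7 and 0.8 in that setting. Its threshold is 1 score for all libraries, although scores were not scaled between them. With lists of equal length the score and sharing excesses differed by -1.67 and 1.55 points (exact permutation p = 0.5 and 0.6). With THSs of at least 217 bp they differed by -1.44 and -6.26 points (exact permutation p = 0.7 and 0.3).

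Regions on chrUn lay in clusters separated by long empty stretches. A merged region counts once however many libraries share it, and THSs per Mb within single libraries are given below. chrUn had 73.9 merged regions per Mb of span, below all 19 chromosomes (78.9 per Mb on chromosome 8 to 111 per Mb on chromosome 10). Yet neighbouring regions were close, with a median distance of 4443 bp, slightly below the lowest of the chromosomes (4509 bp on chromosome 9, up to 6376 bp). The share of distances up to 1000 bp did not set chrUn apart. It was 24.0% on chrUn and 18.2% (chromosome 1) to 24.5% (chromosome 9) on the chromosomes. Distances over 50 kb made up 6.69% on chrUn and at most 4.20% on a chromosome (chromosome 8), and the longest was 285914 bp. In windows of 100 kb, the variance of the number of regions was 5.37 times its mean on chrUn and 2.38 to 3.61 times on the chromosomes. Of the 432 windows, 5.32% held no region, against at most 2.68% on a chromosome, and the fullest 10% of windows held 30.0% of all chrUn regions, against 19.7 to 24.1%. With windows of 50 and 200 kb the variance was 3.89 and 7.02 times the mean on chrUn, again above all 19 chromosomes (at most 2.55 and 5.66 times). These are values of 1 sequence set beside 19 others, and joins between scaffolds enter the distances on chrUn.

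**Figure D5:**
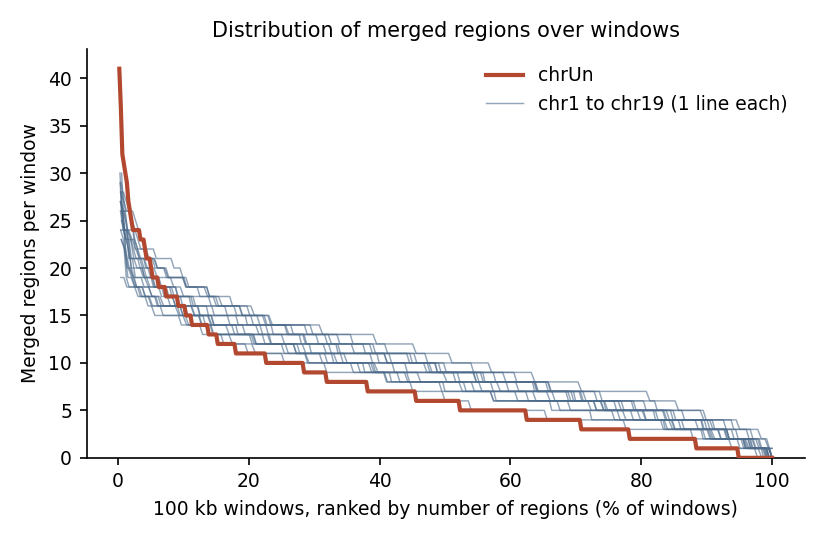
Number of merged regions per 100 kb window (y axis) with the windows of each sequence ranked from fullest to emptiest (x axis, % of windows). The chrUn line starts highest, at 41 regions, runs at or below the lower edge of the 19 chromosome lines from about the middle on, and reaches 0 first, with 5.32% of windows empty.

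Close spacing on chrUn was also found within single libraries. A THS lay within 1000 bp of the next THS of its list in 28.2, 44.9 and 45.0% of cases on chrUn in cold replicates 1 to 3 and in 27.5, 25.9 and 29.7% in control replicates 1 to 3. On placed chromosomes the shares were 18.7, 26.0 and 25.0% in cold and 22.4, 20.8 and 19.4% in control. chrUn was higher in 6 of 6 libraries, by 11.5 ± 6.57 percentage points (SD, n = 6, exact sign-flip p = 0.03125, adjusted p = 0.0365). On the random contigs the shares were 25.8, 32.3 and 26.1% in cold and 27.2, 28.7 and 24.4% in control, near those of chrUn in control replicates 1 and 2 and below them in cold replicates 2 and 3. Cold replicates 2 and 3 had the largest differences between chrUn and placed chromosomes, and without them the mean was 7.50 points. The excess was 16.1 ± 5.82 points in cold and 6.85 ± 3.04 points in control (n = 3 each, exact permutation p = 0.2, adjusted p = 0.45). The number of THSs per Mb, in contrast, was higher on chrUn in 5 of 6 libraries and did not pass the test (35.5 ± 4.72 on chrUn and 31.6 ± 6.02 on placed chromosomes, SD, n = 6, exact sign-flip p = 0.125, adjusted p = 0.125). Without the fullest 10% of windows this difference was turned to -0.878 per Mb.

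Along chrUn, regions thinned out towards its end. When the span was cut into 10 stretches of equal length, the first 4 held 412, 417, 325 and 424 regions, and the last 4 held 264, 238, 269 and 191. Regions in all 6 libraries were spread more evenly, between 37 and 73 per stretch. They made up 12.3% of the regions of stretch 5 and 30.9% of the last, which had 44.3 regions per Mb. Since the scaffolds are in an arbitrary order, this describes the sequence as deposited.

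The 3 fullest windows differed in make-up. The first, chrUn:17100001-17200000, held 41 regions over 25.8 kb of covered sequence, of which 18 were present in all 6 libraries and none was confined to control libraries. Cold replicates 1, 2 and 3 had 25, 41 and 39 THSs in it, and control replicates 1, 2 and 3 had 21, 20 and 28. The second, chrUn:4600001-4700000, held 37 regions with similar numbers in all libraries, 24, 24 and 22 THSs in cold and 26, 28 and 16 in control. The third, chrUn:29000001-29100000, held 32 regions, of which 2 were present in all 6 libraries. It was filled by 2 libraries, with 29 and 28 THSs in cold replicates 2 and 3, against 6 in cold replicate 1 and 6, 4 and 9 in control replicates 1 to 3, and 12 of its regions were called in cold replicates 2 and 3 alone. In the fullest 10% of windows (44 windows, 954 regions), 23.0% of regions were present in all 6 libraries, against 16.6% of the 2231 regions elsewhere on chrUn. Sharing was higher in full windows on placed chromosomes too. There, 6.76% of the regions outside the fullest windows were present in all 6 libraries, against 7.14% of all placed regions.

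The strongest sites common to all 6 libraries stood near the head of every list. They are the 10 regions with the highest value of their lowest within-library percentile. The first, chrUn:40577736-40580183, had scores of 6911, 5280 and 4365 in cold replicates 1 to 3 and 9070, 9506 and 7003 in control replicates 1 to 3. It is 2448 bp wide and holds 11 THSs, so that some libraries split it into several sites. The second, chrUn:22776812-22777478, had scores of 6913, 3960 and 3332 in cold and 8152, 8214 and 6686 in control. Its THSs were 661 to 667 bp wide in all 6 libraries. In both regions cold replicates 2 and 3 had the lowest scores, while cold replicate 1 was near control replicate 3.

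The third, chrUn:32614579-32614962, had scores of 4510, 4831 and 3669 in cold and 4801, 4269 and 5139 in control, so the groups overlapped, and its THSs were 383 or 384 bp wide in every library. Next came chrUn:25828272-25829457, with 4236, 2312 and 2001 in cold and 5218, 5401 and 4657 in control. Its neighbour chrUn:25827029-25827838, which ranked 10, had 1698, 1451 and 1251 in cold and 2162, 2002 and 1891 in control. In both neighbours all cold scores lay below all control scores, again with cold replicate 1 highest among the cold libraries. These comparisons use scores that were not scaled between libraries, and the cold lists also had lower maxima on placed chromosomes (3121 to 4136 in cold and 4849 to 5117 in control).

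The remaining 5 were chrUn:42419799-42420539, chrUn:27320118-27320655, chrUn:4275973-4276283, chrUn:23702649-23703370 and chrUn:1735666-1735925. Their scores ran from 1310 to 2310 in the cold libraries and from 1508 to 2941 in the control libraries. The last of them is narrow, at 257 to 260 bp in every library. Precise edges of this kind were rare on chrUn. Among the regions of all 6 libraries with exactly 1 THS per library (381 on chrUn and 1756 placed), both edges agreed within 10 bp over the libraries in 2.89% on chrUn and 7.29% on placed chromosomes. Among those whose lowest percentile exceeded 95, the shares were 12.9% of 70 and 29.6% of 297 regions. The median spread of the edges over libraries did not keep this direction. Over all 381 and 1756 regions it was 111 bp for starts and 118 bp for ends on chrUn, against 133 and 141.5 bp placed. Above the 95th percentile it was 29.5 and 58 bp on chrUn, against 8 and 9 bp placed. These measures were chosen after the data were seen and were not tested.

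As a class, the 590 regions of all 6 libraries were 808 bp wide at the median, against 819 bp for the 2837 placed ones. The median of their lowest percentile was 86.9 on chrUn and 70.1 on placed chromosomes. Regions called in 1 library were narrower and weaker, with medians of 241 bp and the 31.1 percentile on chrUn and of 254 bp and the 24.8 percentile on placed chromosomes. chrUn held 16.4% of all regions found in 6 libraries.

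The 5 widest regions of chrUn were present in all 6 libraries. The first, chrUn:1218972-1222534, measured 3563 bp and was listed as a single THS of 3444 to 3563 bp in each of the 6 libraries. Its scores were 60.0, 58.3 and 44.8 in cold and 43.7, 58.3 and 102.8 in control. The second, chrUn:11064290-11067620 (3331 bp), was broken into 19 THSs, which covered 2564, 1187 and 1040 bp of it in cold replicates 1 to 3 and 2615, 3267 and 2547 bp in control replicates 1 to 3. The third, chrUn:7509826-7513023, had a lowest percentile of 45.2 (scores of 3.42, 5.25 and 4.98 in cold and 4.12, 6.97 and 3.98 in control). The next, chrUn:1125054-1128126 and chrUn:39446796-39449775, were covered over at least 2744 bp in every library. In all, 295 chrUn regions (9.26%) were wider than 1 kb, against 5.85% of placed regions and at most 8.03% on a chromosome (chromosome 9).

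Most chrUn regions were open in both groups or in few libraries. Of the 3185 regions, 1399 (43.9%) had a THS in at least 1 library of each group, against 28.4% of placed regions. Another 856 (26.9%) had THSs in cold libraries alone and 930 (29.2%) in control libraries alone, against 29.1% and 42.5% of placed regions. All 3 cold libraries had a THS in 691 chrUn regions and all 3 control libraries in 831. The common set made up 85.4% of the 691 and 71.0% of the 831. The same shares of placed regions were 79.8% and 56.1%.

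Few chrUn regions separated the groups. Presence in the 3 cold libraries together with absence from the 3 control libraries was seen in 4 of the 3185 regions (0.126%, exact binomial 95% interval 0.0342 to 0.321%), against 0.183% of all merged regions. The opposite pattern was seen in 27 regions (0.848%, 0.559 to 1.23%), against 1.04% of all merged regions. Both shares lay near the background, so these counts are no result particular to chrUn. For 1 region, 3 libraries against 3 allow an exact p of 0.1 at best. The 2 counts hung on the choice of libraries. With cold replicate 1 left out, the first grew to 190 and the second to 100 regions. With any other library left out, 11 to 15 regions were particular to cold and 35 to 112 to control, where the 112 came from omitting control replicate 3. Shares over all merged regions were not computed for these counts. Without cold replicate 1, regions held by cold replicates 2 and 3 alone also count as cold-only. With all 6 libraries, such regions made up 5.81% of chrUn regions (185 regions), against 2.67% of all merged regions.

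The 4 cold-only regions were narrow, at 211 to 298 bp, and their lowest percentile ran from 35.0 to 75.2 with a median of 53.0. The first, chrUn:25747043-25747273, had scores of 7.87, 27.3 and 20.7 in cold replicates 1 to 3, and the nearest control THS lay 1205 bp away. It was followed by chrUn:35338337-35338556 (5.09, 5.60 and 11.0), with the nearest control THS 65433 bp away. The last were chrUn:37501695-37501992 (6.43, 5.04 and 4.39) and chrUn:31211760-31211970 (7.87, 8.02 and 3.20). The widest is 298 bp wide, and none remained when THSs below 217 bp were left out. In cold replicates 2 and 3 the third was called over 113 and 140 bp, narrower than any THS listed in a control library.

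The control-only regions were wider, with a median of 626 bp, and their lowest percentile had a median of 24.8. One stood above the rest. chrUn:20261357-20261725 had scores of 63.3, 51.4 and 41.9 in control replicates 1 to 3 and widths of 347 to 351 bp, and the nearest cold THS lay 475 bp away. The next were chrUn:10914522-10914952 (6.57, 8.05 and 7.10) and chrUn:25842281-25842636 (16.0, 17.5 and 6.94), with a cold THS 626 and 1051 bp away. The other 9 named for their percentile were chrUn:5825086-5825615, chrUn:13184108-13184721, chrUn:1326247-1327790, chrUn:31197141-31198045, chrUn:16106193-16106727, chrUn:19992952-19993843, chrUn:13122980-13123462, chrUn:13779944-13780673 and chrUn:5914544-5915406. Their percentile in the weakest library lay between 30.0 and 50.6. For 10 of the 27, cold THSs were found no farther than 1000 bp away.

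Cold replicates 2 and 3 had many chrUn sites in common with no other library. They were the only libraries with a THS in 185 regions (5.81%, exact binomial 95% interval 5.02 to 6.68%), against 2.40% of placed regions and 2.67% of all merged regions. The placed values ran from 1.97% on chromosome 14 to 3.47% on chromosome 17. Another 33 regions (1.04%) were held by these libraries and control replicate 3, against 0.219% of placed regions. At the median, the 185 regions were 183 bp wide and their lowest percentile was 66.7. A control THS was found no more than 1000 bp away for 72 of them. That width is below the narrowest THS of any other list (199 to 217 bp). Width limits moved with this pattern, and their part in it was not tested on its own.

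Several of these sites were strong. The first, chrUn:15603579-15603748, had scores of 562.6 and 535.3 in cold replicates 2 and 3 over 163 and 170 bp, and the nearest control THS lay 5064 bp away. The second, chrUn:40580523-40580738 (463.6 and 413.3), lies beside the strongest region of chrUn described above, 704 bp from a control THS. The third, chrUn:17192964-17193176 (430.8 and 363.6), lies in the fullest window. The fourth, chrUn:25829930-25830108 (243.2 and 255.5), lies 472 bp from a control THS, beside the 2 strong neighbours described above. The fifth was chrUn:19290414-19290576 (294.6 and 249.6). All 5 were 162 to 216 bp wide in both libraries, and all reached the 97th percentile or higher in both lists. chrUn:15603579-15603748, chrUn:25829930-25830108 and chrUn:19290414-19290576 (162 to 179 bp) were narrower than any THS of the other libraries. chrUn:40580523-40580738 (216 and 210 bp) and chrUn:17192964-17193176 (213 and 207 bp) were below the narrowest THS of control replicate 2 alone (217 bp). They were not below those of cold replicate 1 (203 bp) or control replicates 1 and 3 (207 and 199 bp).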

How the data were processed

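One list of THSs per library was deposited, giving sequence, start, end, name and score. Per the study's methods, adapters were removed (Cutadapt), reads were aligned (BWA) to version 2.1 of the 12X grape assembly, only unique alignments without duplicates were kept, and the authors called THSs library by library (MACS2, q-value of 0.05). FastQC is also named in the submitters' processing notes. Tool versions were not given in the sources used here. The deposited score was read as −log10 of the q-value. The lists carry no column names, and this reading rests on their lowest scores, 1.30 to 1.31. Keeping unique reads leaves out repeated sequence, and how much of chrUn this affects was not tested. Lists carry no read numbers, so depth was not used and the read-count test of the study was not run.

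Coordinates were converted to count from 1, and THSs were merged in Python (3.11.15) using pandas (2.3.3) and numpy (2.4.6). bedtools 2.31.1 gave the same 44710 regions, with 3185 on chrUn. The counting rule was tested on simulated data. Groups were compared by exact permutation of the library labels (20 assignments), and chrUn was compared with chr1 to chr19 by exact sign-flips of the within-library differences (64 patterns), both two-sided with Benjamini-Hochberg adjustment over 9 and 7 measures. Sign-flips take libraries as replicates, and all libraries share 1 genome sequence. Intervals (scipy 1.17.1) are exact binomial ones, and neighbouring regions are not independent. Percentiles rank all scores of a list. Plots were drawn with matplotlib 3.10.9.

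Named regions are the 10 of all 6 libraries, up to 12 cold-only, up to 12 control-only and 5 of cold replicates 2 and 3 alone with the highest lowest percentile, the 5 widest, and the 3 fullest windows. Members and measures were chosen with earlier results of these data known, and stratified sharing by score or width is descriptive. Values at matched score for width, top-ranked counts, edges, stretches of chrUn and window make-up were added after the data were seen. Genes near the regions and the sequences of the regions were not analysed here, and the minor version of the assembly was not checked. The settings tried were a score of at least 4.13 (the median), lists of equal length (13019 THSs), THSs of at least 217 bp, merging within 200 bp, windows of 200 bp, 50% overlap, omission of the fullest windows, random contigs counted as placed, 2 of 3 libraries as enough for presence, a replicate block, leaving out each library and, added later, the 4 libraries with long limits alone.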

Additional observations from a re-analysis of the deposited data

How the results depend on the processing

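Of 237 alternatives over 20 results, 169 left the result as it was (direction and call, or a count within 1.5 times). For the 6 measures in which chrUn passed the test against placed chromosomes, all alternatives kept the direction, and only settings with fewer than 6 libraries lost the call, where no exact sign-flip test can pass (the smallest p is 0.0625 with 5 libraries and 0.125 with 4). Without 1 library, the differences ranged over 40.8 to 47.5 bp for width, 28.7 to 29.5 points for score percentile, 16.9 to 18.8 points for the top 10% of scores, 14.2 to 17.2 points for sharing with at least 1 library, 19.8 to 20.9 points for sharing with all others, and 9.78 to 12.8 points for spacing within 1000 bp. In the 4 libraries with long limits, an alternative chosen after the data were seen, they were 51.6 bp and 29.7, 19.7, 15.4, 23.2 and 7.50 points. The number of THSs per Mb on chrUn minus that on placed chromosomes (3.89) passed with the stricter threshold (11.0) and with lists of equal length (6.44), and was -0.878 without the fullest 10% of windows. The cause was not tested.

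Between groups, sharing of chrUn THSs with at least 1 library (2.39 points, cold minus control) was turned to -0.155 with lists of equal length, and to -2.37 and -1.21 without cold replicate 2 or 3, within a range of -2.37 to 6.97 without 1 library. The contrast of that sharing with placed chromosomes (-0.738 points) was 1.55 with lists of equal length. No group test could pass under any setting. chrUn regions (3185) fell to 1937 with the stricter threshold, by construction. Cold-only regions (4) numbered 0 under the common width limit, 15 with windows of 200 bp, 203 in at least 2 of 3 libraries, 170 in the 4 libraries with long limits and 11 to 190 without 1 library. Control-only regions (27) numbered 60 under the common width limit, 166 in at least 2 of 3 libraries, 84 in the 4 libraries with long limits and 35 to 112 without 1 library. Fewer libraries and weaker presence rules raise such counts by construction. The same counts were not made over all merged regions in these settings, so they are not read as a trait of chrUn. The share of regions in all libraries on chrUn was 1.95 to 2.90 times that on placed chromosomes over all 14 settings, the main one included.

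The labels do not say whether libraries with the same replicate number were paired. Deviations of such libraries over chrUn regions correlated at 0.0733, -0.0263 and 0.0549, against -0.113 to 0.0722 for libraries with different numbers. These values cannot decide whether libraries were handled together. With the replicate block the differences were as before (1.90 points for the share of THSs, 3.20 points for that of covered length), the exact sign-flip p over 3 pairs was 0.25 for both, the smallest possible, and no call was made in either fit.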
